A study of Mus musculus with 8 samples.

Results

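The genes described here encode the machinery that fills, docks and fuses synaptic vesicles: calcium sensors, vesicle membrane proteins, synapsins and synucleins, SNARE proteins with their partners, Rab3 GTPases and the proteins of the active zone. They were taken as the rows of 37 listed genes in a deposited table of read counts for 53801 mouse genes, and all 37 had a row and passed the filter on low counts, which left 16675 genes for testing. RNA came from mouse lumbar dorsal root ganglia after spinal nerve ligation. The injured group holds the left ganglia of male C57BL/6J mice whose left L4 spinal nerve had been tied tightly with silk, taken 1, 3 and 7 days after the operation (1 library a day). The contralateral group holds the right ganglia of those same mice at the same days (1 library a day). The no injury group is 1 further wild-type pool with a left and a right library, for which the labels give no day. Every library pooled 3 mice and the lumbar ganglia L3 to L5, so each injured library also contains 2 ganglia whose own nerve was not tied. The protocol describes sham surgery, but no library label names a sham group, and none of the sources used here gives the animals' ages.

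A synaptic vesicle is loaded with transmitter, tethered at the active zone by large scaffold proteins, primed by the assembly of SNARE proteins on vesicle and plasma membrane, and fused when a calcium sensor such as a synaptotagmin binds calcium. The same core proteins serve dense-core granules, which carry neuropeptides, and other membrane traffic. Sensory neurons make these proteins in the ganglion and send them down the axon to terminals in the spinal cord and the periphery. The levels here are those of RNA in the whole ganglion, with all its cell types, and not of terminals. In bulk RNA, fewer cells of a type and less RNA per cell cannot be told apart.

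Levels are given as CPM, the reads of a gene scaled to the total of its library. The libraries held 20488115 to 21652688 reads each, so the 3 reads that a count of 0 still allows come to 0.139 to 0.146 CPM. Each day has 1 library of each side, so no single day could be tested on its own. The test took the 3 injured pools as replicates of the injured state. Its p-values measure the spread of the side difference between those pools together with the left and right difference of the no injury pool. The labels were checked with 5 genes known for their rise after nerve injury, and all 5 of 5 (Atf3, Sprr1a, Gal, Npy and Csf1) were higher on the injured side. Atf3 had 464, 629 and 618 CPM in injured ganglia at days 1, 3 and 7, 126, 167 and 110 CPM in contralateral ganglia, and 10.9 and 11.0 CPM in the no injury libraries. The contralateral libraries were thus above the no injury ones for this gene, and whether their reads came from the contralateral tissue or from carry-over between libraries was not tested. The no injury pool also went against its label on sex: the female transcript Xist had 4931 and 4129 reads there and 0 to 3 reads in the operated libraries. A difference between the contralateral and no injury libraries cannot be told apart from a difference of sex or pool. The neuronal genes Prph, Nefl, Tubb3, Isl1 and Pou4f1 were detected in every library.

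In injured ganglia 13 members of the release machinery fell relative to the contralateral side and 3 rose. The fit over the 3 operated pools and the no injury pool, with each pool as a block, called 3 of 37 members higher (background 9.90% of the 16675 genes) and 13 of 37 lower (background 7.75%) at an edgeR adjusted p under 0.05. The other 21 did not pass. The members were chosen with earlier results of these data known, and the backgrounds cover all genes tested, not genes of like level. The 3 that rose were Doc2b, Syt4 and Erc2. The 13 that fell were Rph3a, Syt7, Sv2b, Vamp1, Pclo, Snap25, Rab3a, Rims1, Syt2, Syngr1, Rimbp2, Rims2 and Unc13c. The median log2 fold change was -0.22 over the members and 0.02 over all genes tested, and 31 of 37 members had a negative estimate. In 12 members all 3 injured libraries lay below all 3 contralateral libraries (background 15.4%), and in 4 all lay above (background 14.6%). The summed level of the members was 15768, 12889 and 12865 CPM in injured ganglia at days 1, 3 and 7, against 16403, 16118 and 15699 CPM in contralateral ganglia. These sums are 96.1%, 80.0% and 81.9% of the contralateral ones, and the left no injury library had 101% of the right one's.

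**Figure D1:**
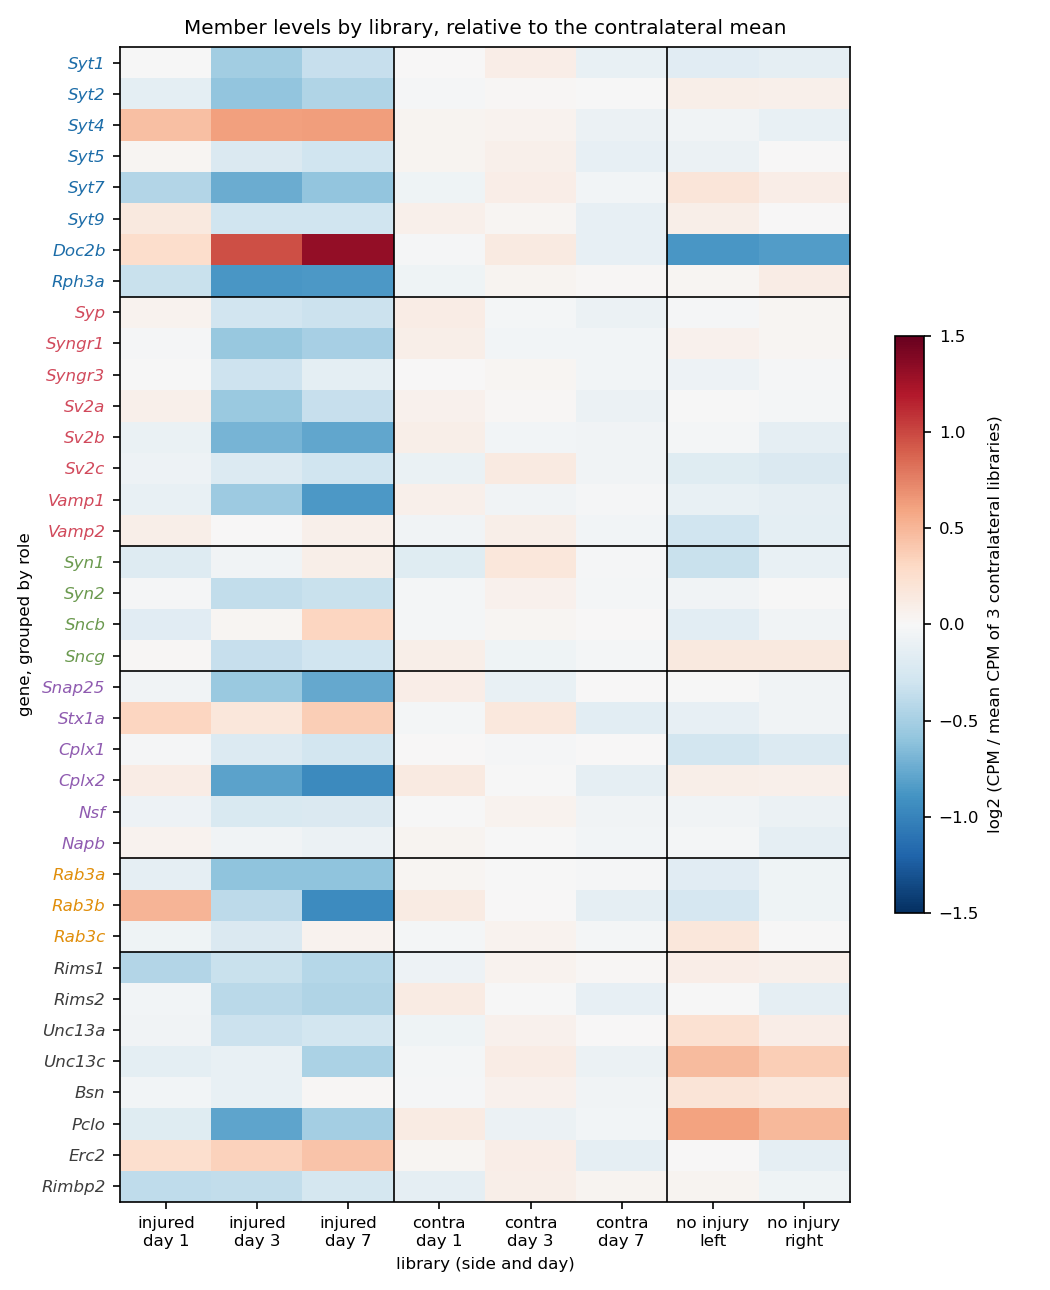
Level of each of the 37 members (rows, grouped by role with label colours) in the 8 libraries (columns), as log2 of CPM over the mean CPM of the 3 contralateral libraries. Blue rows dominate the injured day 3 and day 7 columns, Doc2b, Syt4 and Erc2 are red in all 3 injured columns, and Pclo and Unc13c are also red in both no injury columns.

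The calls depended on the pools. Syt4 and Rims1 kept their call when any single pool was left out. Without the day 7 pool these were the 1 higher (background 2.90%) and the 1 lower call (background 0.952%) that held. The other 12 lower members then had edgeR adjusted p from 0.0661 to 0.237, with log2 fold changes from -0.62 to -0.18. Without the day 3 pool Syt7, Rims1 and Pclo were still called lower, 3 of 37 (background 2.03%), and the 10 lost had log2 fold changes from -0.56 to -0.23. Without the no injury pool the same 3 were called lower (background 2.72%), and the 10 lost ran from -0.70 to -0.25, with edgeR adjusted p from 0.0565 to 0.0993. Without the day 1 pool the 13 were all called among 27 lower members (background 13.9%). With side, left or right, as a further term no member was called (edgeR; 9 genes of all tested higher and 0 lower), since the no injury pool alone then sets the side difference. At an unadjusted edgeR p under 0.05, 1 member was higher and 5 were lower in this fit. The share of all genes at that threshold was not counted. The 13 lower members of the main fit then had log2 fold changes from -0.65 to -0.32 with larger errors, for Rims1 -0.40 with an SE of 0.12. Scaled to the summed counts of the pan-neuronal genes, 4 members were called higher (background 11.9%) and 8 lower (background 4.51%), and the 5 lower calls lost had log2 fold changes from -0.45 to -0.18.

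Markers of other cell types changed beside these genes, and their part in the members' levels was not tested. Counts of markers called stand against the same backgrounds, 9.90% of all genes higher and 7.75% lower. The summed pan-neuronal genes stood at 94.7%, 92.9% and 101% of the contralateral sum at days 1, 3 and 7, ranging from 25201 to 27676 CPM in injured, 26606 to 27835 CPM in contralateral and 25176 to 25739 CPM in no injury libraries. Of these 20 genes, 1 rose and 4 fell (Elavl3 higher, and Rbfox3, Nefh, Isl1 and Pou4f1 lower), and the list's median log2 fold change was -0.05. The 13 macrophage markers summed to 117 to 521 CPM in injured, 140 to 244 CPM in contralateral and 171 to 242 CPM in no injury libraries, with 2 of 13 higher. The 10 fibroblast markers summed to 2125 to 4768 CPM in injured, 1591 to 2223 CPM in contralateral and 2381 to 2504 CPM in no injury libraries, with 5 of 10 higher. Schwann cell markers had 1 of 12 higher, with sums of 6048 to 9050 CPM in injured, 5882 to 8626 CPM in contralateral and 6678 to 8739 CPM in no injury libraries. Satellite glia markers had 4 of 12 higher, with sums of 3821 to 4756 CPM in injured, 3449 to 4046 CPM in contralateral and 4056 and 4153 CPM in no injury libraries. Relative to the contralateral sum at days 1, 3 and 7, macrophage markers stood at 73%, 372% and 210%. Fibroblast markers stood at 134%, 293% and 154%, Schwann cell markers at 103%, 146% and 105%, and satellite glia markers at 111%, 126% and 118%. Endothelial and mural markers stood at 111%, 127% and 80.7%, and erythroid markers at 41.3%, 265% and 71.4%. Neutrophil and marrow markers, with 0 of 10 called, summed to 32.5 CPM in the injured and 539 CPM in the contralateral library of day 1, against 53.6 to 101 CPM in the other 4 operated libraries and 75.8 and 279 CPM in the no injury ones. The 12 markers of spinal cord neurons and central glia had 3 of 7 tested higher (Gad2, Aldh1l1 and Tmem119), with sums of 42.7 to 62.4 CPM in injured, 31.5 to 50.0 CPM in contralateral and 28.5 and 29.8 CPM in no injury libraries. The spinal neuron markers Slc32a1, Chat and Mnx1 were near 0: Slc32a1 reached at most 0.56 CPM, Chat 0.33 CPM and Mnx1 0.05 CPM in any library.

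**Figure D2:**
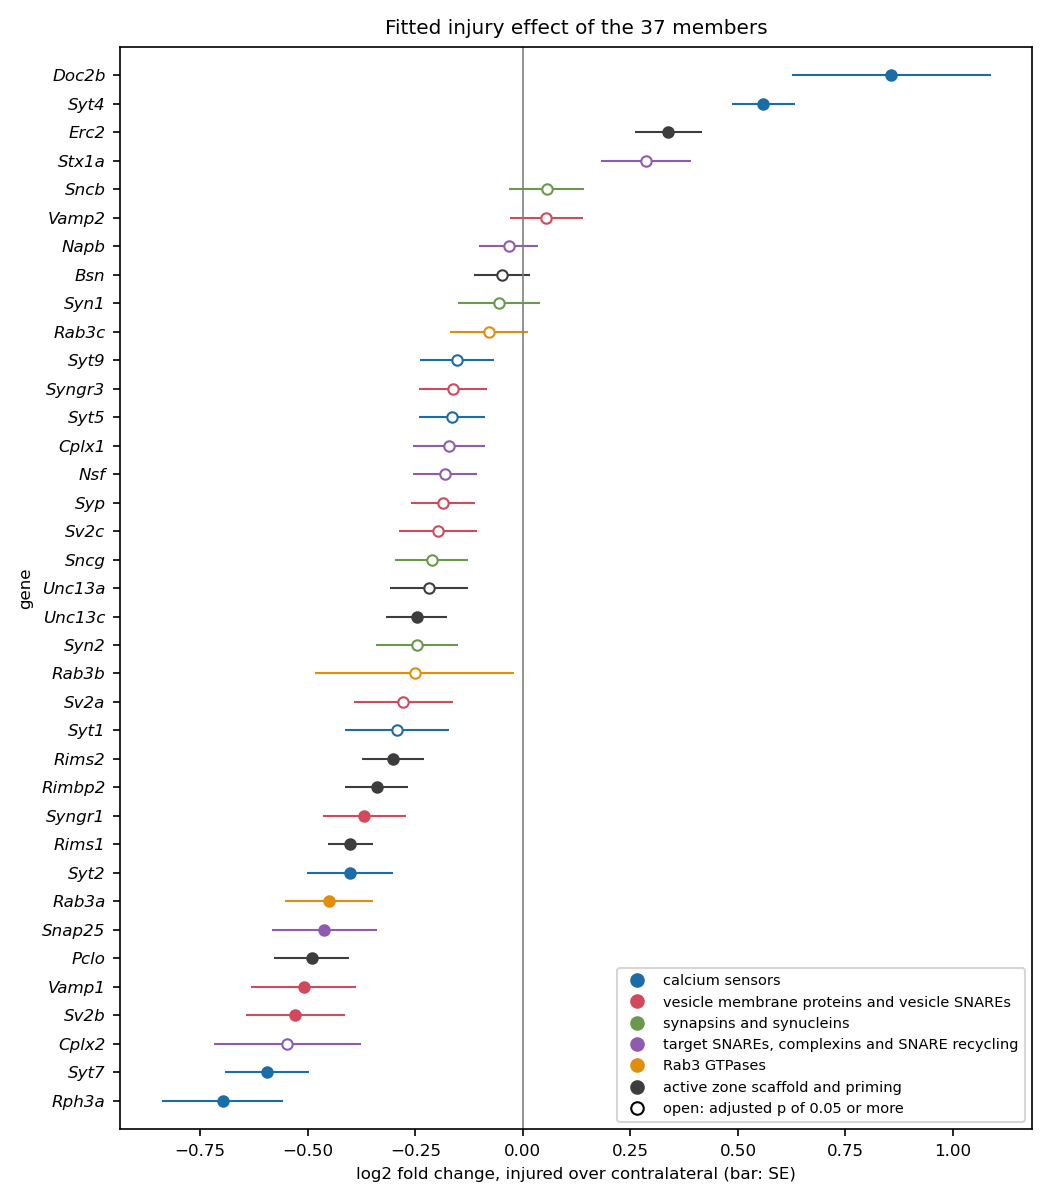
Fitted log2 fold change of each member, injured over contralateral (x axis; bars are the SE), ordered by size and coloured by role; filled points have an edgeR adjusted p under 0.05. The 3 filled points right of 0 are Doc2b at 0.86, Syt4 at 0.56 and Erc2 at 0.34, and the 13 filled points on the left run down to Rph3a at -0.70.

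To show the regulatory sequence beside these values, the RefSeq promoter windows (GRCm38.p6, 250 bases before to 50 after the gene's start, printed along the gene's own strand) were searched on both strands for the AP-1 motif TGANTCA, the cyclic AMP response element TGACGTCA, the GC box GGGCGG and the left arm of the neuronal silencer element RE1, TTCAGCACC. Of the 37 members 29 matched, with 38 windows among 32851. Syt4, Doc2b, Syt7, Snap25, Rims2, Syt5, Syngr3 and Vamp2 had no window. Windows of 3 members that fell are printed first, with GC boxes in capitals. Next is that of Erc2, the only higher member with a window, which holds an AP-1 match (capitals). Last is that of Syn1, which did not pass the test and holds the RE1 arm and the cyclic AMP response element (capitals). They lie at chr6:125215331-125215630 (plus strand, Vamp1), chr1:22806109-22806408 (minus strand, Rims1), chr5:14514668-14514967 (plus strand, Pclo), chr14:27622157-27622456 (plus strand, Erc2) and chrX:20920869-20921168 (minus strand, Syn1).
Vamp1: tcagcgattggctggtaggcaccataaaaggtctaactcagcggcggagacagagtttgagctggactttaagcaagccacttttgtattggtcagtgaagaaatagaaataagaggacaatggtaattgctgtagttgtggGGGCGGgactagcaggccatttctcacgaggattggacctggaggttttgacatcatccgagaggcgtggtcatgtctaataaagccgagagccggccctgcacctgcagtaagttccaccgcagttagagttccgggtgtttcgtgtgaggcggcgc
Rims1: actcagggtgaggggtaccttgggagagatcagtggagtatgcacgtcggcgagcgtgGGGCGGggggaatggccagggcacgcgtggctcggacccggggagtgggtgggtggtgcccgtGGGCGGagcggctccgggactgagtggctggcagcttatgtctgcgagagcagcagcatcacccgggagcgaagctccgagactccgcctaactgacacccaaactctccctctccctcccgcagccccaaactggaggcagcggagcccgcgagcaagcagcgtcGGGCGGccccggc
Pclo: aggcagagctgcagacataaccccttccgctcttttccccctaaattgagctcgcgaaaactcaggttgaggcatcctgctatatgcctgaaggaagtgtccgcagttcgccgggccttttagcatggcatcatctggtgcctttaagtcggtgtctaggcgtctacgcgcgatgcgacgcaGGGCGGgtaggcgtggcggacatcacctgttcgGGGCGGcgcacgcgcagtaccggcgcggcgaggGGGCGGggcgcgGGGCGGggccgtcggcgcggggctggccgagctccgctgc
Erc2: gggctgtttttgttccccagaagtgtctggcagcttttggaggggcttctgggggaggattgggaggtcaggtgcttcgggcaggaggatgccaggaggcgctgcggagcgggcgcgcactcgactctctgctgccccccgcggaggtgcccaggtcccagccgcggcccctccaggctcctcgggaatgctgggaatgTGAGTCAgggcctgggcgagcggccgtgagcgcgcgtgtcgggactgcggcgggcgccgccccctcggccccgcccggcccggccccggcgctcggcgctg
Syn1: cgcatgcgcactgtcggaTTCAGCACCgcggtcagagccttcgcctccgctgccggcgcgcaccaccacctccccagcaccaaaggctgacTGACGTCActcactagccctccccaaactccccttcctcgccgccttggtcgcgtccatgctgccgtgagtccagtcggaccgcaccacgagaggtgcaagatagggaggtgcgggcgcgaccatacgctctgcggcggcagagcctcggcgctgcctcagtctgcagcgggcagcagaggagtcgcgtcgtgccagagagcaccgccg
The GC box was found in 24 of 38 member windows, against 35.7% of all windows, and the median GC content was 61.6% in member windows and 52.7% in all windows. Erc2 shared the AP-1 match with Rph3a and Syt2, which fell (3 of 38 windows, against 7.81% of all). The cyclic AMP response element was found in Syn1 alone of the matched members, against 1.79% of all windows, and the RE1 arm in Syn1 and Unc13a, against 0.371% of all. Members with opposite changes thus share a motif, and these matches are letters in a window, not binding sites.

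Calcium sensors moved both ways: of 8 members Syt4 and Doc2b rose (background 9.90%), Syt7, Rph3a and Syt2 fell (background 7.75%), and Syt1, Syt5 and Syt9 did not pass. Syt4, an atypical synaptotagmin of secretory granules and vesicles that does not act as a fast calcium trigger, had 653, 730 and 734 CPM in injured ganglia at days 1, 3 and 7. In contralateral ganglia it had 489, 494 and 447 CPM, and in the no injury libraries 459 and 443 CPM. Every injured library lay above the other 5. The log2 fold change was 0.56 ± 0.07 (SE from the fit over all 8 libraries, edgeR adjusted p = 0.00392). Doc2b, a soluble calcium sensor of spontaneous and asynchronous release (chromosome 11, 75768966 to 75796049, GRCm38), had 3.07, 5.01 and 6.39 CPM in injured ganglia. It had 2.54, 2.81 and 2.35 CPM in contralateral and 1.40 and 1.43 CPM in no injury libraries. The 3 groups did not overlap, and the log2 fold change was 0.86 ± 0.23 (SE; edgeR adjusted p = 0.0406), at a level near the bottom of the module. Only its day 7 side ratio, 1.40, lay above the left over right range of genes of like level without injury. DESeq2 did not call Doc2b (DESeq2 adjusted p = 0.0708). Neither did edgeR without the no injury, day 3 or day 7 pool (log2 fold changes 0.85, 0.89 and 0.55).

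Syt7, a slow, high-affinity calcium sensor of asynchronous release and membrane repair (chromosome 19, 10389090 to 10453180, GRCm38), had 201, 163 and 181 CPM in injured ganglia, against 261, 291 and 265 CPM in contralateral and 308 and 292 CPM in no injury libraries. It fell in all 3 pools without overlap (log2 fold change -0.59 ± 0.10, SE; edgeR adjusted p = 0.00917). Rph3a encodes rabphilin, an effector that binds Rab3 on vesicles (chromosome 5, 120940499 to 121010092, GRCm38), and had 456, 315 and 316 CPM in injured, 550, 595 and 584 CPM in contralateral and 590 and 621 CPM in no injury libraries. This was the lowest estimate among the 37 members, and the injured day 3 and day 7 libraries lay under that of day 1 (log2 fold change -0.70 ± 0.14, SE; edgeR adjusted p = 0.0224). Syt2, the fast calcium sensor of many rapidly firing neurons, had 439, 324 and 357 CPM in injured, 483, 494 and 485 CPM in contralateral and 518 and 514 CPM in no injury libraries. It fell by 0.40 on the log2 scale (SE 0.10; edgeR adjusted p = 0.0323) with no overlap. Syt1, its close relative, had 314, 219 and 246 CPM in injured against 316, 337 and 290 CPM in contralateral ganglia and did not pass (log2 fold change -0.29; edgeR adjusted p = 0.140).

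**Figure D3:**
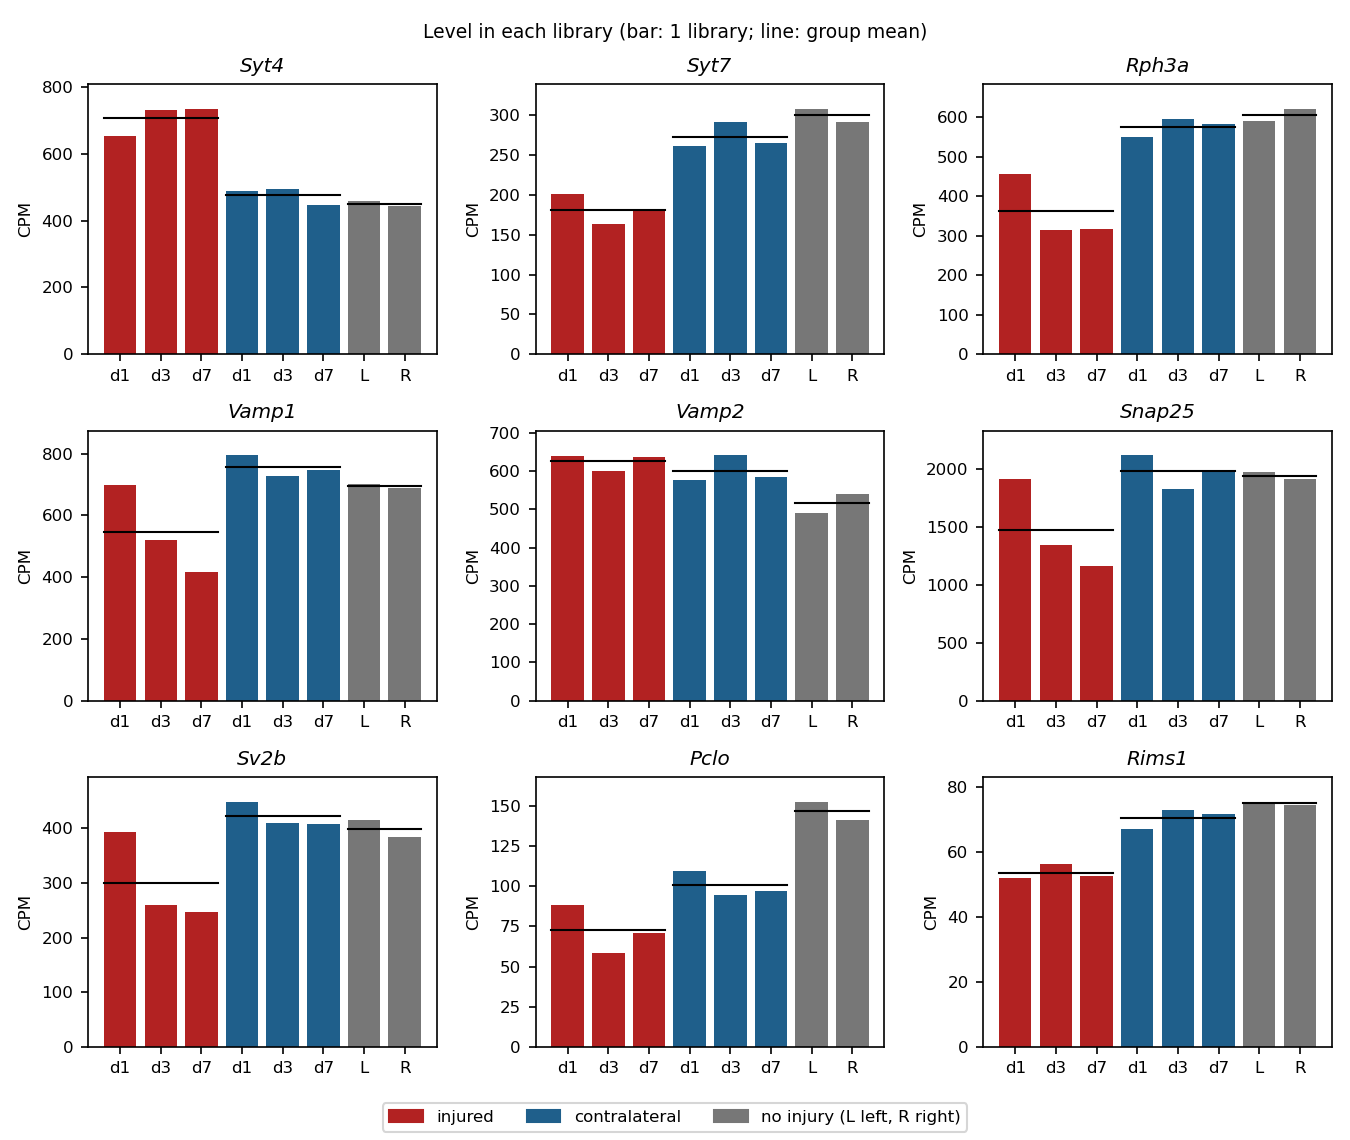
CPM of 9 members in each library (bars, from 0; black lines are group means), with injured libraries of days 1, 3 and 7 left of the contralateral and no injury ones. Syt4 bars are higher on the injured side at each day, Vamp2 bars stay between 490 and 641 CPM in all libraries, and Vamp1 and Snap25 bars are lowest in the injured library of day 7.

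Vesicle membrane proteins and vesicle SNAREs had 3 of 8 members lower (background 7.75%), namely Sv2b, Vamp1 and Syngr1, and none higher (background 9.90%). Sv2b, a transporter-like vesicle glycoprotein (chromosome 7, 75114894 to 75309262, GRCm38), had 394, 260 and 246 CPM in injured, 449, 410 and 408 CPM in contralateral and 415 and 385 CPM in no injury libraries. Its injured libraries lay below the contralateral ones, but the day 1 value lay between the no injury libraries (log2 fold change -0.53 ± 0.12, SE; edgeR adjusted p = 0.0246). Vamp1, the vesicle SNARE synaptobrevin 1 (chromosome 6, 125215551 to 125245964, GRCm38), had 699, 519 and 417 CPM in injured, 795, 729 and 747 CPM in contralateral and 703 and 690 CPM in no injury libraries. It fell by 0.51 on the log2 scale (SE 0.12; edgeR adjusted p = 0.0303). Vamp2, synaptobrevin 2, had 641, 601 and 636 CPM in injured ganglia, against 578, 641 and 584 CPM in contralateral and 490 and 541 CPM in no injury libraries. It did not pass (log2 fold change 0.05; edgeR adjusted p = 0.696), and no test compared the pair. Syngr1, synaptogyrin 1, had 546, 372 and 391 CPM in injured, 587, 537 and 536 CPM in contralateral and 579 and 564 CPM in no injury libraries, and the injured library of day 1 overlapped the contralateral ones (log2 fold change -0.37 ± 0.10, SE; edgeR adjusted p = 0.0380). The other 4, Syp, Syngr3, Sv2a and Sv2c, had log2 fold changes from -0.28 to -0.16 and did not pass.

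Synapsins, which tie vesicles to actin, and synucleins, which bind vesicle membranes, had no member that passed, of 4 (Syn1, Syn2, Sncb and Sncg). The backgrounds were 9.90% higher and 7.75% lower. Sncg, gamma-synuclein, was the most abundant member of the module: on the TPM scale, which also divides by exon length, it had a mean of 9102 TPM in contralateral ganglia, 44.9% of the members' TPM. Its CPM were 2009, 1564 and 1607 in injured, 2108, 1895 and 1942 in contralateral and 2189 and 2194 in no injury libraries. Without Sncg the members' injured sum was still 96.2%, 79.6% and 81.8% of the contralateral sum. Syn1 overlaps the exons of the oppositely transcribed Araf gene (154 CPM on average), as Unc13a does Colgalt1 (73.0 CPM) and Rab3a Mpv17l2 (17.5 CPM). No source used here gives the strand setting of the counting, so reads of such pairs cannot be told apart.

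Of the target SNAREs, complexins and SNARE recycling proteins, 1 of 6 fell (background 7.75%). Snap25, the plasma membrane SNARE of neurons (chromosome 2, 136713453 to 136782428, GRCm38), had 1916, 1347 and 1167 CPM in injured, 2123, 1835 and 1995 CPM in contralateral and 1977 and 1916 CPM in no injury libraries. The day 1 library overlapped the contralateral range and the later injured libraries lay below it (log2 fold change -0.46 ± 0.12, SE; edgeR adjusted p = 0.0383). Cplx2, which clamps and assists the SNARE complex, had 418, 223 and 201 CPM in injured, 425, 385 and 353 CPM in contralateral and 412 and 409 CPM in no injury libraries, and missed the threshold (log2 fold change -0.55 ± 0.17, SE; edgeR adjusted p = 0.0783). Stx1a, syntaxin 1A, went the other way in estimate, with 54.6, 48.9 and 56.6 CPM in injured against 43.0, 48.9 and 39.2 CPM in contralateral ganglia (log2 fold change 0.29; edgeR adjusted p = 0.100). Cplx1, Nsf and Napb had log2 fold changes of -0.17, -0.18 and -0.03 and did not pass.

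Rab3 GTPases tether vesicles and bind Rim and rabphilin. Rab3a (chromosome 8, 70754679 to 70758677, GRCm38), the most abundant of the 3 per length, had 377, 272 and 274 CPM in injured, 423, 411 and 408 CPM in contralateral and 368 and 396 CPM in no injury libraries, and fell by 0.45 on the log2 scale (SE 0.10; edgeR adjusted p = 0.0258). Rab3c had 519, 469 and 563 CPM in injured against 531, 563 and 533 CPM in contralateral ganglia, and did not pass. Rab3b had 20.7, 11.1 and 7.57 CPM in injured against 15.8, 14.6 and 13.3 CPM in contralateral ganglia, so its day 1 injured library was the highest of all and its day 7 one the lowest. The estimate over the days was -0.25 (edgeR adjusted p = 0.497).

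The active zone had 5 of 8 members lower (background 7.75%), namely Pclo, Rims1, Rimbp2, Rims2 and Unc13c. It had 1 higher (background 9.90%), Erc2, and 2 not called, Unc13a and Bsn. Rims1, the Rim scaffold that recruits calcium channels and primes vesicles (chromosome 1, 22286251 to 22805994, GRCm38), had 52.1, 56.1 and 52.6 CPM in injured, 66.9, 72.9 and 71.6 CPM in contralateral and 75.4 and 74.5 CPM in no injury libraries. All injured libraries lay below the other 5, and they differed little by day (log2 fold change -0.40 ± 0.05, SE; edgeR adjusted p = 0.00415). Pclo, the giant scaffold piccolo (chromosome 5, 14514918 to 14863459, GRCm38), had 88.6, 58.3 and 70.9 CPM in injured, 110, 94.5 and 97.4 CPM in contralateral and 153 and 141 CPM in no injury libraries (log2 fold change -0.49 ± 0.09, SE; edgeR adjusted p = 0.0116). Erc2, the scaffold also called CAST (chromosome 14, 27622428 to 28478537, GRCm38), had 151, 161 and 171 CPM in injured, 130, 136 and 116 CPM in contralateral and 128 and 116 CPM in no injury libraries, and rose without overlap (log2 fold change 0.34 ± 0.08, SE; edgeR adjusted p = 0.0255). Rimbp2, Rims2 and Unc13c fell by 0.34, 0.30 and 0.25 on the log2 scale, and Bsn, the piccolo relative bassoon, had a log2 fold change of -0.05 (edgeR adjusted p = 0.648).

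By day, few members had left the range of side differences seen without injury at day 1, and most had at day 3. A member was counted as outside when its log2 ratio of injured over contralateral lay beyond the central 95% of the left over right ratios of genes of like level in the no injury pool. That pool has 1 library a side, and some marker sums differed between them. The left sum was 14.1% of the right for skeletal muscle, 76.4% for Schwann cell, 142% for macrophage and 368% for neutrophil and marrow markers. It was 97.8% for pan-neuronal genes and 102% for satellite glia markers. The part of these differences in the range was not tested. On day 1, 4 members were below the range (background 8.35%) and 5 above (background 10.7%). On day 3, 29 were below (background 17.4%) and 2 above (background 19.3%). On day 7, 23 were below (background 15.0%) and 5 above (background 14.5%). The median ratio of the members was 0.00, -0.38 and -0.28 at days 1, 3 and 7, and 0.01 for left over right without injury. Syt7, Rph3a, Rims1 and Pclo were below the range on each of the 3 days. At day 1 these 4 had ratios of -0.35, -0.24, -0.33 and -0.28. Syt4 and Erc2 were above the range on each of the 3 days, with ratios of 0.45 and 0.25 at day 1. The share of all genes that lay outside on every day was not counted. These counts by day rest on 1 pool each, so day and pool cannot be told apart.

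**Figure D4:**
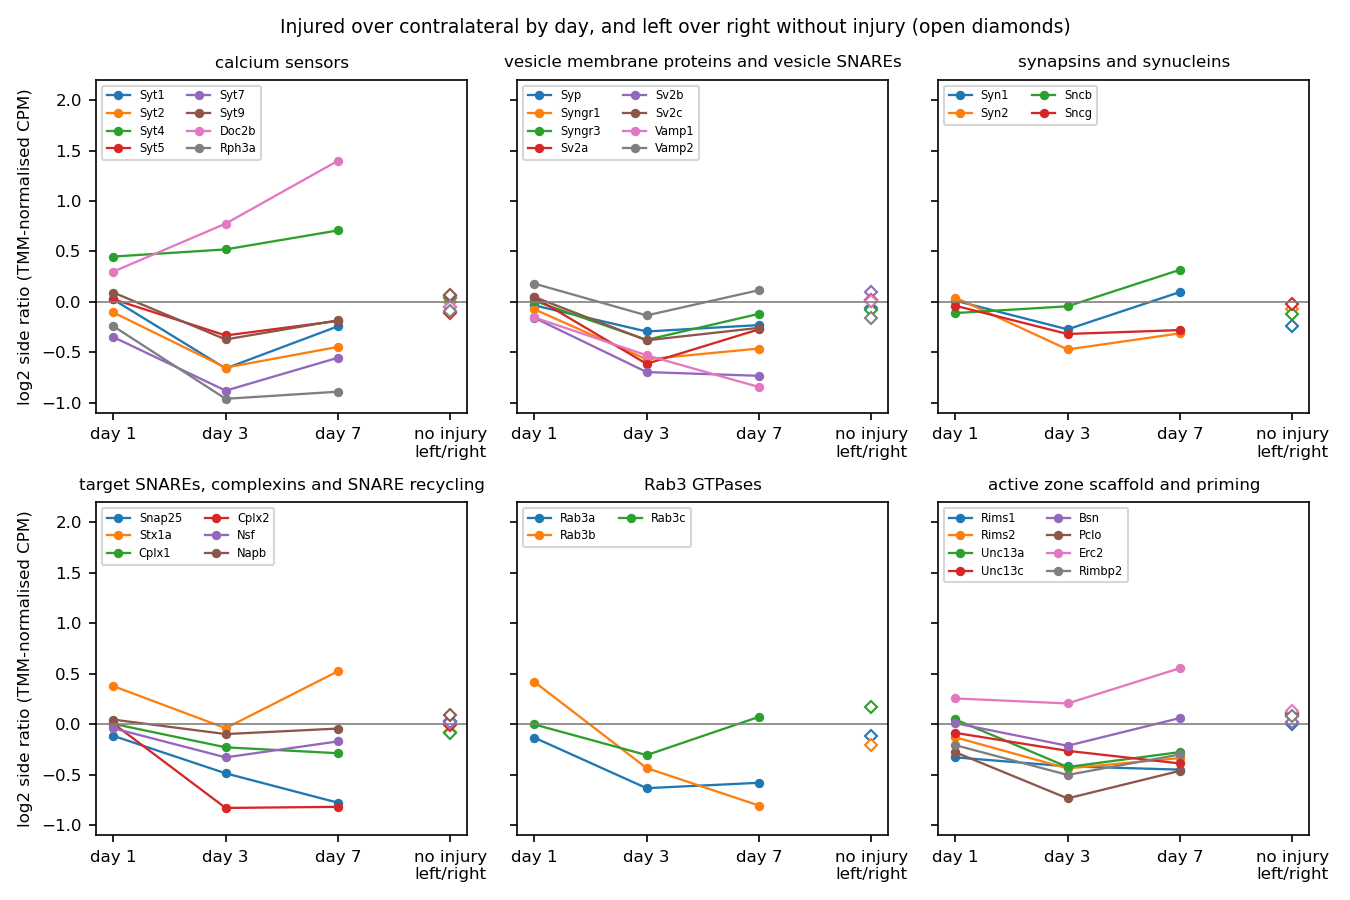
Log2 ratio of injured over contralateral TMM-normalised CPM at days 1, 3 and 7 (filled points joined by lines) and of left over right in the no injury pool (open diamonds) for each member, in 6 panels by role. Most lines lie near 0 at day 1 and below it at days 3 and 7; Doc2b ends at 1.40, Syt4 at 0.71, Vamp1 at -0.85 and Rph3a at -0.89.

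The change of the side ratio per doubling of days was tested as a trend, and edgeR called 0% of genes in either direction, 0 of 37 members among them; at an unadjusted p under 0.05 there were 1324 genes of all tested, and 2 members higher (Doc2b and Sncb) and 7 lower (Rab3b, Vamp1, Cplx2, Snap25, Sv2b, Rph3a and Rab3a). Among them, Rab3b had an estimate of -0.45 per doubling (edgeR adjusted p = 0.207) and Vamp1 -0.25 (edgeR adjusted p = 0.293). DESeq2 called 3 members lower (background 0.0720%), Vamp1, Snap25 and Cplx2. The members' median estimate was -0.09 per doubling, both over all pools and without the no injury pool. It was -0.24 without the day 7 pool and -0.07 without the day 3 pool, but 0.13 without the day 1 pool. The median was thus negative only in fits that held the day 1 pool, and a steady fall from day 3 to day 7 was not seen. Comparing days 3 and 7 with day 1 as a step, an alternative added after the data were seen, edgeR called 3 members lower (background 0.659%), Rph3a at -0.69, Cplx2 at -0.83 and Rab3b at -1.04. Without the day 7 pool edgeR called 14 members as falling (background 2.93%), and without the day 3 pool 6 (background 1.20%). Each of these fits held 2 operated pools, whose side differences the injury and trend terms fit exactly. Only the left and right difference of the no injury pool was left as residual. These calls therefore compare single days with no spread between injured pools, and no trend is concluded from them.

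Shares within pairs or families of relatives were taken in TPM, which compares levels per length, and were not tested. Vamp1 made up 29.0%, 24.4% and 19.7% of the Vamp1 and Vamp2 total in injured ganglia, 34.0%, 29.8% and 32.4% in contralateral ganglia and 34.9% and 32.3% in the no injury libraries. Syt4 made up 45.8%, 55.6% and 54.3% of the 6 listed synaptotagmins in injured ganglia, against 37.3%, 36.8% and 36.6% in contralateral and 35.4% and 34.9% in no injury libraries. The injured shares of both did not overlap those of the other libraries. Syt7 made up 6.45% to 7.31% of the same total in injured, 10.4% to 11.3% in contralateral and 11.9% and 12.3% in no injury libraries. Cplx2 made up 13.2%, 8.42% and 7.98% of the Cplx1 and Cplx2 total in injured ganglia, against 13.2%, 12.2% and 11.1% in contralateral ganglia. The shares of Sv2b, Rab3a, Pclo, Syt2 and Rims1 among their listed relatives were also taken. Their injured ranges overlapped those of the other libraries. In order of mean TPM, Sncg and Cplx1 led both sides, and Snap25 had the next highest mean. Syt4 stood 4th in injured ganglia and 9th in contralateral ganglia, and on neither side was it separate from its neighbours in that order. At 654, 719 and 732 TPM in injured ganglia its range overlapped that of Snap25, with 1100, 760 and 667 TPM, and that of Vamp2, with 656, 605 and 648 TPM. The lowest levels were those of Doc2b, at a mean of 4.28 TPM in injured and 2.30 TPM in contralateral ganglia.

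**Figure D5:**
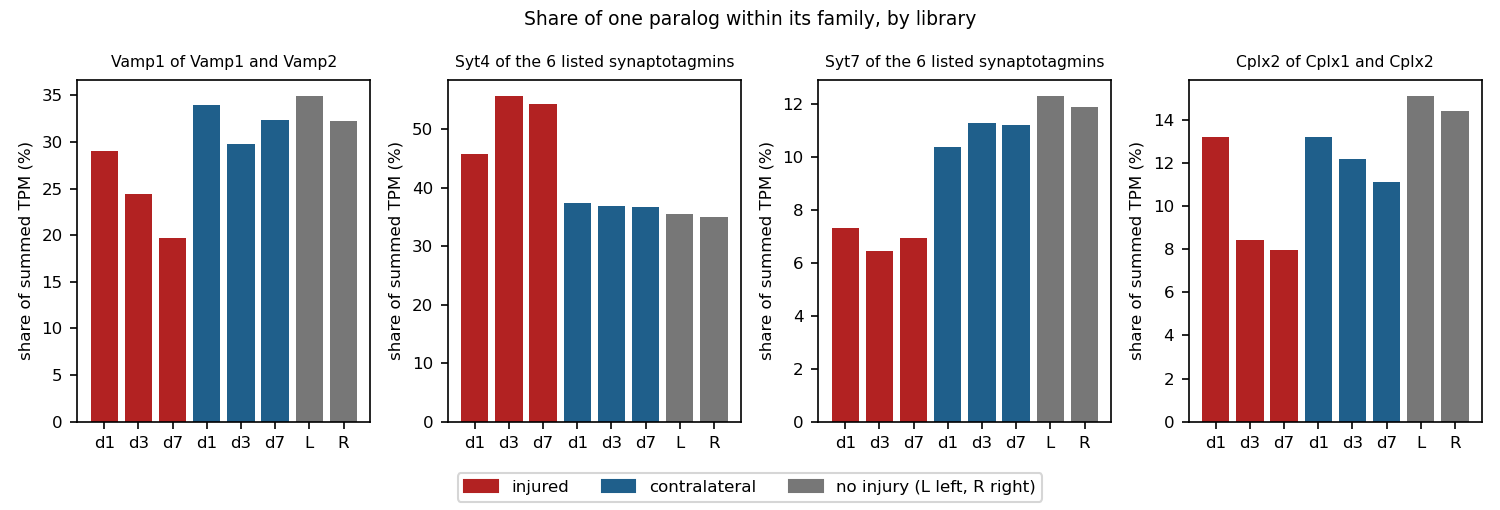
Share of 1 paralog in the summed TPM of its family (y axis, percent, from 0) in each library, with injured days 1, 3 and 7 left of the contralateral and no injury libraries. The Syt4 share is 45.8% to 55.6% in injured libraries and at most 37.3% in the others; the Vamp1 share is lowest, at 19.7%, in the injured library of day 7.

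Contralateral and no injury libraries also differed in some members, without a test. The 3 contralateral libraries lay below both no injury libraries in 8 members (background 19.4%) and above both in 8 (background 17.9%), shares near those of all genes. Pclo was lower in contralateral than in no injury libraries by a log2 difference of -0.54 and Unc13c by -0.42, whereas Doc2b was higher by 0.82.

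Of the other genes of vesicle release and recovery, 6 of 98 tested were higher (background 9.90%) and 16 lower (background 7.75%). Their median log2 fold change was -0.09. The same backgrounds apply to each list below. Other synaptotagmins and calcium sensors had 0 of 14 higher and 2 lower: Syt3 fell by 0.75 on the log2 scale and Syt6 by 0.35. Other vesicle proteins had 0 of 14 higher and 4 lower, namely the synaptophysin relative Synpr (-0.64), the granule Rab Rab27b (-0.78), Scamp1 (-0.25) and Rab3ip (-0.31). Other SNARE and SNARE-binding genes had 0 of 19 higher and 1 lower, Vamp7 (-0.21), and a positive median of 0.05. Other active zone genes had 3 of 15 higher (Rims4 at 0.43, Ppfia2 at 0.34 and Rab3gap2 at 0.21) and 2 lower, among them Ppfia4 (-0.37). Vesicle retrieval genes had 1 of 15 higher, the clathrin light chain Cltb (0.40), and 4 lower, among them the amphiphysin gene Amph (-0.33). Transmitter transporters and vesicle acidification had 0 of 9 higher and 1 lower, the glutamate transporter Slc17a7 (-0.29). Dense-core granule genes moved both ways, with 2 of 12 higher, the granule peptide precursor Vgf (1.06) and Ptprn (0.30), and 2 lower, the granins Chga (-0.54) and Chgb (-0.42). Vgf had 260, 354 and 373 CPM in injured, 156, 183 and 131 CPM in contralateral and 80.3 and 103 CPM in no injury libraries.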

How the data were processed

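RNA from 8 pooled libraries (3 injured, 3 contralateral, 2 no injury) was analysed from 1 deposited table of whole-number read counts per gene, used as deposited. The build was GRCm38 and the tools named were featureCounts 1.6.3, STAR 2.5.4a, DESeq2 and cutadapt 1.16, per the submitters' processing notes. The strand setting, the annotation release and the handling of multi-mapping reads were not given in the sources used here. Reads could therefore be split between near-identical genes. The 3-read limits cover only the error of counting, as PCR copies were not marked by molecular identifiers.

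Gene positions came from GENCODE M21 (53706 of 53801 IDs matched). Genes were tested with edgeR's quasi-likelihood method (edgeR 4.0.16, R 4.3.3) after TMM scaling and filterByExpr at a minimum of 10 counts, with Benjamini-Hochberg adjustment over 16675 genes and a threshold of 0.05. The model held a block for each pool and a term for injury, which left 3 residual degrees of freedom. A further term, injury by log2 day, gave the trend and left 2. Each SE is the absolute log2 fold change divided by the square root of the F value of its edgeR test. The design text makes each mouse its own control, which gives the block; deviations of the paired libraries correlated by 0.25, -0.03 and 0.36 at days 1, 3 and 7. Side ratios used a prior count of 2, and their range came from 10 bins of genes by level. TPM used exon length. Alternatives were DESeq2 1.42.0, limma 3.58.1 (voom), other scalings and filters, and each pool left out. The lowest chi-square per gene between libraries was 6.05, so none agreed within sampling noise. The methods were tested on simulated data.

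The members and lists were chosen with earlier results of these data known. Full values are given for the 12 called members with the largest absolute log2 fold change, others by range, and members that run against their role group by value. Erc2, Vamp2, Syt1, Cplx2, Sncg, Rab3b and Rab3c, with the library values of Vgf, were singled out after their values were seen. Of 108 other pathway genes 107 were in the table. The values of 1 gene of these lists are not reported here.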

Additional observations from a re-analysis of the deposited data

Results flagged for a closer look

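The side ratio of Rab3b, a minor Rab3 GTPase here, lay outside the left over right range in opposite directions at different days: its log2 ratio of injured over contralateral stood at 0.42 on day 1, then at -0.44 on day 3 and -0.81 on day 7. The difference between single days rests on 1 library a side at each day, so it has no spread of its own. As a trend over the days the estimate was -0.45 per doubling, with an edgeR adjusted p of 0.207. It was -0.55 without the day 7 pool and -0.44 without the day 3 pool. The step of days 3 and 7 against day 1, given above, stood at -1.04.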

How the results depend on the processing

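Higher members of the injury effect numbered 3. They numbered 1 with no replicate block over 6 libraries (342 of all 16018 genes tested). With side as a further term they numbered 0 (9 of 17286). With a pool left out they numbered 1 to 3 (475 to 2382 genes of all tested). Lower members numbered 13. They numbered 8 when scaled to pan-neuronal genes (752 of all 16675 genes tested). With no replicate block they numbered 6 over 8 libraries (1344 of 16244) and 2 over 6 libraries (234 of 16018). With the side term they numbered 0 (0 of 17286), and with a pool left out 1 to 27 (156 to 2287 genes of all tested). Under DESeq2's size factors, library size alone, either filter, DESeq2 or limma-voom both counts stayed within 1.5 times. The falling trend, called for 0 members, was called for 3 by DESeq2, for 3 as a step added after the data were seen, and for 0 to 14 with a pool left out. With an operated pool left out, the trend calls have no spread between injured pools, as given above. Of 518 member and alternative pairs, 407 kept direction and side of the threshold, and 12 changed sign, all in members that did not pass: under pan-neuronal scaling Syn1 (0.0091), Napb (0.031) and Bsn (0.015), without the replicate block over 8 libraries Syn1 (0.029) and Napb (0.0040), and with the side term Syn1 (0.19). With a pool left out, log2 fold changes ran from -0.14 to 0.057 for Syn1, -0.072 to 0.0025 for Napb, -0.11 to 0.037 for Bsn, -0.16 to 0.037 for Rab3c, -0.010 to 0.15 for Vamp2 and -0.082 to 0.14 for Sncb. The cause was not tested. Depth limits Doc2b, Rab3b and the other scarce members most.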

Other observations

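Cplx3, a complexin outside the 37 members that was singled out after its values were seen, had 36, 5 and 1 reads in the injured libraries of days 1, 3 and 7, 2, 0 and 1 reads in the contralateral libraries and 0 reads in both no injury libraries. Its 36 reads come from 1 library and have no replicate check. Skeletal muscle markers summed to 1225 CPM in the right no injury library and 173 CPM in the left one, against 20.8 to 140 CPM in injured and 17.3 to 123 CPM in contralateral libraries.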
